A study of Mus musculus with 4 samples.

Results

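The hepatocyte-like cells of the 2 libraries labelled E18.5 are described here. A cell was a member when it had at least 1000 detected genes and at least 5% of its UMIs (unique molecular identifiers, 1 for each captured transcript) in Alb, Afp, Apoa1, Apoa2 and Ttr. S100a8 with S100a9, and all Hba- and Hbb- genes, each had to stay under 5%, which limited the RNA of neutrophils and red cells but did not remove it. Members were thus selected on their own UMIs, and what these genes show is a description. The rule found 1887 members among the 43351 cells of the series. There were 411 in the library of the heterozygous mother and 1476 in that of the null mother.

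The study sequenced single cells of mouse fetuses with the Chromium droplet method, 1 library in each of 4 groups, at E14.5 and E18.5. Every fetus was labelled Cyp27a1-/-, so controls lacked the fetal gene too, and the mother was either Cyp27a1+/- (heterozygous mother) or Cyp27a1-/- (null mother). CYP27A1 is a mitochondrial sterol hydroxylase whose product, an oxysterol, is a step toward bile acids, and the design sets fetal cells without the enzyme against each other by what the mother carried. How many fetuses or litters a library pools, and their sex, were not given in the sources used here. For E18.5 and the heterozygous mother, the title of the sample has a tag for wild type, against its own genotype label. With 1 library per group no test between the groups was possible, and the mother's genotype, the litter and the preparation cannot be told apart.

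Fetal hepatocytes secrete most plasma proteins, beginning with alpha-fetoprotein (Afp) and shifting toward albumin (Alb) as they mature, and they live among the blood-forming cells that the fetal liver shelters. Before birth they receive glucose from the mother. Glucose production, ketone synthesis and other fasting programmes are known to switch on around birth, under glucagon, glucocorticoids and low insulin. They also make cholesterol, through enzymes whose genes are driven by SREBP2 when cell sterols are low and held back by sterols, oxysterols among them.

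The label of the tissue was lung, and the members go against it. Over all cells of a library, the lung epithelial gene Nkx2-1 had 41.2 CPM (counts per 1000000 UMIs) in the E14.5 library of the heterozygous mother and 52.6 CPM in that of the null mother, but 0.0409 and 0.00847 CPM in the libraries labelled E18.5. Wherever a pair of values follows, the heterozygous mother stands first. Alb ran the other way, with 2905 and 8344 CPM in the libraries labelled E18.5 against 0.574 and 0.469 CPM in the earlier ones. No member was found in the E14.5 libraries, where 0 of 4957 and 0 of 4843 cells allow shares of up to 0.0744% and 0.0761%. The libraries labelled E18.5 held 97894048 and 118054232 UMIs, of which the members had 4126807 and 16715758.

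The members carried hepatocyte genes that the rule did not use. Hnf4a, the nuclear receptor that maintains hepatocyte identity, was at 69.1 and 67.6 CPM in members and at 1.83 and 3.40 CPM in the other cells with at least 1000 genes. The fibrinogen gene Fgb was at 12414 and 11699 CPM in members against 68.0 and 290 CPM in those other cells. All 10 genes of the hepatocyte marker list had UMIs in both libraries, and their summed level, genes of the rule included, was 185691 and 181890 CPM. Of the 8 lung epithelial markers, 4 and 5 were at 0 in the members and the summed level was 4.604 and 1.68 CPM. Cyp27a1 itself gave 43.4 and 45.8 CPM in members labelled Cyp27a1-/-, from 179 and 766 UMIs. The deleted part of the gene is not given in the sources used here, so these tags check nothing.

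The promoters of 5 genes named below are shown first: Txnip, Igfbp1 and G6pc, which were lower past the fold with the null mother, Afp, a gene of the rule, and Hmgcs1, a cholesterol synthesis gene within the fold. Each line is the 250 bases before the annotated start, 5′ to 3′ on the strand of the gene, from RefSeq on GRCm38.p6, all on the plus strand: Afp at chr5:90490464-90490713, Igfbp1 at chr11:7197537-7197786, G6pc at chr11:101367466-101367715, Txnip at chr3:96557707-96557956 and Hmgcs1 at chr13:119690101-119690350. Capitals mark matches on either strand to the HNF1-type motif (10 bases with base 7 free, as in the Afp, G6pc and Igfbp1 windows), TGTTTTG (the core of the insulin response element), GTAAACA (a forkhead motif) or TCACNCCAC (a sterol response element). No matches overlapped in these 5 windows.
Afp: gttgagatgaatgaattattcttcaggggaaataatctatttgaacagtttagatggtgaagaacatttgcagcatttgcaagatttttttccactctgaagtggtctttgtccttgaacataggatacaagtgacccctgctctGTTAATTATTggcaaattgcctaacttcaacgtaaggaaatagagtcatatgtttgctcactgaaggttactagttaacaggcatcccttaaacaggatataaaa
Igfbp1: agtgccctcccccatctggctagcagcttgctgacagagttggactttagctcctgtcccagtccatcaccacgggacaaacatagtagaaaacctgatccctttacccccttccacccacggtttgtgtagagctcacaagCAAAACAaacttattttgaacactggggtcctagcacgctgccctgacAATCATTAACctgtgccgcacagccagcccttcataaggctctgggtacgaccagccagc
G6pc: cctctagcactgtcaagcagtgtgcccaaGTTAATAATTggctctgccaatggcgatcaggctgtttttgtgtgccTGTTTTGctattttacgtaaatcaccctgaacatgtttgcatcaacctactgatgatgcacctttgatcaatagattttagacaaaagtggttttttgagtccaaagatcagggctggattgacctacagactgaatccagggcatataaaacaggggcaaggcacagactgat
Txnip: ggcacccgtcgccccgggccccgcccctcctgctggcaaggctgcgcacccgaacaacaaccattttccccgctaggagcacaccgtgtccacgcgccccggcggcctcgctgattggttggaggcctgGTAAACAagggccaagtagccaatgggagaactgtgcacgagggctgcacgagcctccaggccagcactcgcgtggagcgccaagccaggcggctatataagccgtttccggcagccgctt
Hmgcs1: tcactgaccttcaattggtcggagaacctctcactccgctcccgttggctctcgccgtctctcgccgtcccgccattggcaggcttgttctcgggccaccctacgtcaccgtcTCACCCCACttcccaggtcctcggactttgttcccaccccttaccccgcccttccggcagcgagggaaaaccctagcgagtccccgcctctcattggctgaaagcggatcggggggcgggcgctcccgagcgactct

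Of the 64 measured genes of the rule and of the fasting, glucose, cholesterol and fatty acid groups, 49 had such a window. The HNF1-type motif was in 0.371% of all 32851 windows and in those of Afp, G6pc, Igfbp1 and Lpin2 among the 49. The insulin response motif was in 5.56% of all windows and in 7 of the 49. Of these, Cpt1a, G6pc, Igfbp1 and Irs2 had a lower CPM with the null mother, past the fold or not, and Creb3l3, Pck2 and Thrsp a higher one. GTAAACA was in 3.17% of windows and in 4 of the 49. Here Txnip and Lpin2 had a lower CPM with the null mother, and Apoa2 and Elovl6 a higher one. The sterol response motif was in 1.05% of windows and in 2 of the 49, Hmgcs1 and Mlxipl. A match describes the letters only.

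Of 17034 cells with the heterozygous mother, 2.41% (2.19 to 2.65) were hepatocyte-like, against 8.94% (8.51 to 9.38) of the 16517 with the null mother. Intervals of shares are exact Clopper-Pearson intervals at 95%, those of ratios are exact conditional binomial intervals, and both cover counting error only. The share with the null mother was 3.70 times (3.32 to 4.14) that with the heterozygous mother. Of the cells with at least 1000 genes, members were 4.93% and 14.1%, and the ratio was 2.86. Cells with 5% or more of the genes of the rule numbered 668 and 1976, and 224 and 384 of these had under 1000 genes. The 12 and 75 members just inside the limit, at 5 to 6%, had Fgb at 4486 and 4239 CPM, and the 15 and 73 cells just outside it, at 4 to 5%, had 2721 and 3830 CPM. A share of cells can follow from dissection, digestion and red cell lysis as well as from the tissue, and their part was not tested.

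The sexes differed between the libraries. By Y-linked and Xist UMIs, 231 members were male and 1 was female with the heterozygous mother, against 523 male and 363 female with the null mother, and the rest could not be called. The main results below are therefore also given for male cells of both libraries, and for female cells of the null mother library against all members of the other. Of 361 cell barcodes found in more than 1 library, 164 were shared by the libraries labelled E18.5. Of the members, 5 and 9 had such a barcode, and no barcode belonged to members of both.

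The members were divided into 3 kinds by their mitochondrial UMIs, with limits at 2% and 15% placed on a continuous value. With the heterozygous mother, 26.3% (22.1 to 30.8) of members had under 2% mitochondrial UMIs, 48.4% (43.5 to 53.4) had 2 to 15%, and 25.3% (21.2 to 29.8) had 15% or more. With the null mother these shares were 19.5% (17.5 to 21.6), 61.0% (58.4 to 63.5) and 19.5% (17.5 to 21.6). The middle kind was the deepest, with medians of 12953 and 14296 UMIs, against 7125 and 5937 UMIs in the kind low in mitochondrial RNA.

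**Figure D1:**
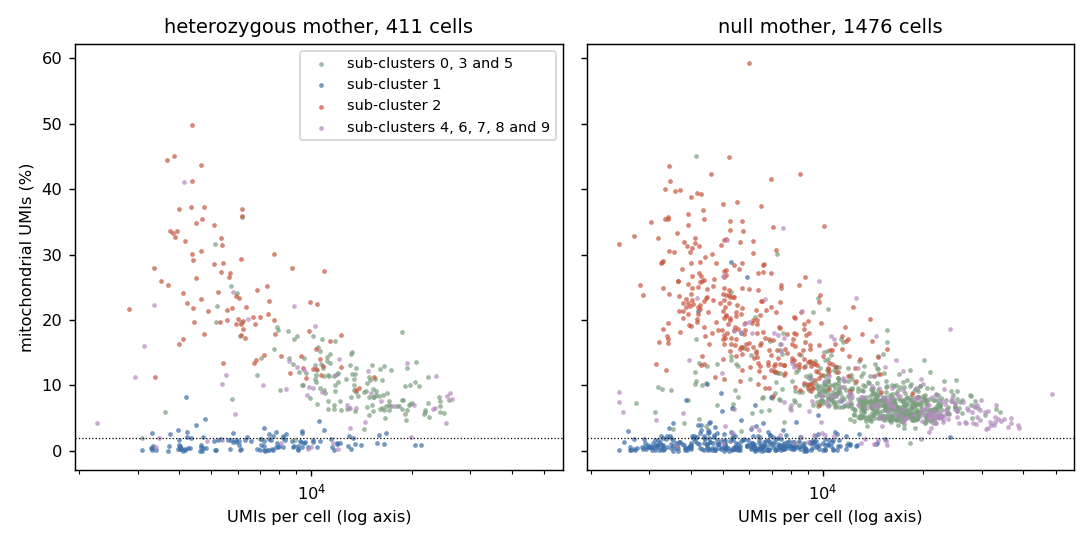
Each point is 1 hepatocyte-like cell, with its UMIs on a log axis and its percentage of mitochondrial UMIs, coloured by sub-cluster; the dotted line is at 2%. Sub-cluster 1 lies along the bottom in both libraries, sub-cluster 2 at the top left, and the deeper cells of sub-clusters 0, 3 and 5 between them.

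Nuclear RNA moved with mitochondrial RNA. Malat1, a long non-coding RNA that stays in the nucleus, was at 374 and 548 CPM in members under 2% mitochondrial UMIs, at 5436 and 5042 CPM in the middle kind and at 12787 and 12939 CPM at 15% or more. Kcnq1ot1, another nuclear RNA, followed the same order, at 6.13 and 10.7 CPM, then 310 and 336 CPM, then 797 and 863 CPM. Alb followed it as well, at 36334 and 27131 CPM, then 56067 and 50047 CPM, then 73510 and 65375 CPM. What these kinds are was not tested.

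Clustering the members gave 10 sub-clusters, which are described by their leading genes. Sub-cluster 0 held 498 cells led by Hp (haptoglobin), Hrg and Azgp1, and sub-cluster 5 held 106 cells led by the mitosis genes Birc5, Hmmr and Ube2c. Sub-cluster 3 held 154 cells led by Ccl5, Car3 and Gdf15, with Lect2 and Serpina6 among its 10 leading genes. The lead of Ccl5 rests on a single cell of the heterozygous mother library, which held 60 UMIs of it. Sub-cluster 3 took 4.87% of members in the library of the heterozygous mother against 9.08% in the other. Sub-cluster 1, of 452 cells, had a mitochondrial median of 0.896% and was led by the metabolic enzymes Hao1 and Akr1b7. Sub-cluster 2, of 428 cells, had a mitochondrial median of 20.02% and was led by Xist and mitochondrial genes.

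The other 5 were led by genes of other cells on top of the hepatocyte genes. Sub-cluster 4 (129 cells) had Elane and Mpo, granule proteases and peroxidase of neutrophil precursors, sub-cluster 6 (57 cells) had the B cell genes Vpreb3, Ebf1 and Cd79a, and sub-cluster 7 (35 cells) had Retnlg and Ngp of neutrophils. Sub-cluster 8 (15 cells) had the endothelial genes Lyve1 and Kdr. Sub-cluster 9 (13 cells, 7 and 6) had Spp1 and Epcam, genes of bile duct cells. Together they held 51 and 198 members, and droplets with 2 cells, free RNA and cells of mixed identity cannot be told apart here. Scrublet, a caller of doublets, marked 4 and 49 members.

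Gene levels were compared by summing UMIs over the members of each library. To be measured, a gene needed 50 UMIs in whichever library had the higher CPM, which is 12.1 CPM with the heterozygous mother and 2.99 CPM with the null mother, so low genes passed more easily when they were higher with the null mother. Log2 ratios divide the null mother by the heterozygous mother after adding 10 CPM to each, and a gene past the fold differed at least 1.5-fold on that scale; folds given with intervals use CPM alone. Of 8060 measured genes, 87 (1.08%) were higher past the fold and 53 (0.658%) lower, 140 (1.74%) in all. These shares are the background for each count of listed genes below. The median over all measured genes was 0.11 and 62.1% of the genes past the fold were higher. Scaling by the median of ratios moved the median to 0.02 and gave 30 higher and 81 lower, or 27.0% higher, so the balance of directions depends on the scaling.

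Inside 1 library, female and male members of the null mother library differed past the fold in 57 measured genes, which is 0.707%. That share holds differences of sex, and of fetuses if several were pooled, along with other spread. Of the 140 genes, 138 had the same sign in male and in female cells of the null mother library, the exceptions being Pf4 and Xist. These cells are part of the members that picked the 140 genes, so a shared sign was largely fixed beforehand. Past the fold in both sexes were 44 of the 87 higher and 35 of the 53 lower genes.

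Several genes of the fasting response were lower with the null mother. Of the 14 on the list, 10 were measured, 4 were lower past the fold and none higher (background 0.658% and 1.08%), with a median log2 ratio of -0.43 against 0.11 over all measured genes. The median was -0.59 in male cells and -0.28 in female cells, each over the listed genes that reached the minimum in those cells. These sets can be smaller than the 10 genes above, so the medians are not over the same genes. The 4 were Txnip, Igfbp1, Lpin1 and Angptl4. Fgf21, the fasting hormone of the liver, had 0 UMIs in both libraries, which allows up to 0.727 and 0.179 CPM.

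Txnip, which binds thioredoxin and restrains glucose uptake, was at 374 CPM with the heterozygous mother and at 59.0 CPM with the null mother. It was 6.34-fold lower (5.85 to 6.87), the lowest log2 ratio of all named genes, at -2.48. In male cells the levels were 399 and 50.0 CPM, and female cells of the null mother library had 83.7 CPM. UMIs of Txnip were found in 83.9% of members with the heterozygous mother and in 36.5% with the null mother. In cells thinned to 2000 UMIs each, which left out 1 shallower S100a8-rich cell and no member, these shares were 48.7% (43.7 to 53.6) and 10.8% (9.24 to 12.5). The cells rich in S100a8 and S100a9 had 15.4% and 11.9% at this depth, so the share with the null mother was no higher than in those cells. Median depths before thinning were 9098 and 9820 UMIs in members and 7140 and 8194 UMIs in the S100a8-rich cells.

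Igfbp1, a binding protein for insulin-like growth factors that insulin represses, was at 2195 and 883 CPM, 2.49-fold lower (2.42 to 2.55). Its male levels were 2258 and 891 CPM, and the female cells had 982 CPM. Thinned, 88.1% (84.5 to 91.0) and 62.5% (60.01 to 65.0) of members had an Igfbp1 UMI, against 0.786% and 2.30% of S100a8-rich cells. Lpin1, a phosphatidate phosphatase and coactivator induced by fasting, was at 146 and 61.6 CPM, 2.37-fold lower (2.14 to 2.62). Angptl4, which inhibits lipoprotein lipase, was at 55.2 and 25.3 CPM, 2.18-fold lower (1.85 to 2.57). The one member of the group above 0 was Acot1, an acyl-CoA thioesterase, at 30.5 and 41.9 CPM.

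Glucose production was split. Of 14 genes 12 were measured, and 2 were past the fold, both lower (background 0.658%). G6pc, the catalytic subunit of glucose-6-phosphatase, was at 39.5 and 5.62 CPM, 7.02-fold lower (5.42 to 9.15), with 2.17 CPM in male and 11.6 CPM in female cells of the null mother library. Pck1, phosphoenolpyruvate carboxykinase of the cytosol, was at 17.9 and 2.15 CPM, from 74 and 36 UMIs, 8.33-fold lower (5.52 to 12.8). Fbp1, fructose-1,6-bisphosphatase, was abundant and close to equal, at 1106 and 1082 CPM, as was Pcx, pyruvate carboxylase, at 196 and 187 CPM. The median of the list was -0.02.

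Of the insulin-like growth factor and insulin signalling genes, 12 of 15 were measured and 2 were lower past the fold (background 0.658%), Igfbp1 and Igfbp2. Igfbp2, a second binding protein, was at 250 and 89.4 CPM, 2.80-fold lower (2.58 to 3.03), with 70.1 CPM in male and 132 CPM in female cells of the null mother library. The female to male difference within that library was itself past the fold for Igfbp2 (log2 0.83), G6pc (0.83) and Txnip (0.64). Igf2 was at 53.8 and 54.9 CPM.

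Other lower genes were of several kinds. Tff3, a secreted trefoil peptide, was at 797 and 336 CPM, 2.37-fold lower (2.27 to 2.48), and Rgs16, a regulator of G protein signalling, was at 44.6 and 14.7 CPM, 3.04-fold lower (2.50 to 3.70). Serpina1e, an alpha-1-antitrypsin gene, was at 9311 and 4963 CPM, 1.88-fold lower (1.85 to 1.90), while its close copies Serpina1a (5964 and 4741 CPM) and Serpina1b (4698 and 4147 CPM) were within the fold; reads of these near-identical genes may be shared between them.

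A pair of low genes rested on few cells. Spp1 was at 196 and 32.4 CPM, but 98.5% and 94.3% of its UMIs lay in the 5 sub-clusters led by genes of other cells, and without those members it was at 3.41 and 2.34 CPM. Ccl5 was at 15.0 and 1.14 CPM, and a single cell held 60 of its 62 UMIs with the heterozygous mother.

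Cholesterol synthesis genes lay above 0, 6 of them past the fold. All 20 enzymes on the list were measured and had log2 ratios from 0.36 to 1.00, with a median of 0.50, where 78.5% of all measured genes were above 0. Mvk, Pmvk, Mvd, Fdft1 and Lss were among the 6. The background is 1.08% for higher genes, and with median-of-ratios scaling the median was 0.33 and 1 was past the fold. In male cells the median was 0.60 with 11 past the fold, and in female cells 0.34 with 2. In the other cells of these libraries with at least 1000 genes it was 0.27.

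Mvd, mevalonate diphosphate decarboxylase, was at 37.8 and 85.9 CPM, 2.27-fold higher (1.93 to 2.70), and Fdft1, squalene synthase, was at 131 and 225 CPM, 1.71-fold higher (1.56 to 1.87). The levels of Fdft1 were 133 and 255 CPM in male cells and 204 CPM in the female ones. Hmgcs1, whose promoter is printed above, was within the fold at 357 and 491 CPM.

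The genes of cholesterol uptake and SREBP control did not move as a block. Of 15, 13 were measured, with a median of 0.01, and 1 was past the fold, upward. Insig1, a known target of SREBP2 that holds SREBPs back when sterols are plentiful, was at 197 and 261 CPM, a log2 ratio of 0.39. Srebf1 was at 45.1 and 44.4 CPM and Srebf2 at 26.7 and 31.5 CPM. Of the LXR receptors and targets, the oxysterol-sensing branch, 8 of 12 were measured and 1 was past the fold, Scd1. Abca1, the cholesterol exporter, was at 104 and 109 CPM.

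Of fatty acid and triglyceride synthesis, all 18 genes were measured, 5 were higher past the fold and none lower (background 1.08% and 0.658%). The median was 0.38, and 0.26 with median-of-ratios scaling. Over the same genes it was 0.42 in male and 0.30 in female cells, and 0.10 in other cells. Over the 16 measured in male cells alone it was 0.48. Fasn, fatty acid synthase, was at 60.6 and 113 CPM, 1.87-fold higher (1.64 to 2.14). Thinned, 8.27% (5.80 to 11.4) and 20.1% (18.1 to 22.3) of members had a Fasn UMI, against 1.44% and 2.33% of S100a8-rich cells. The desaturase Scd1 was at 75.1 and 136 CPM, 1.80-fold higher (1.60 to 2.04), with 160 CPM in male and 101 CPM in female cells of the null mother library. Scd2, Elovl1 and Acly were the other genes past the fold. Fatty acid oxidation and ketone synthesis, with 21 of 21 measured, had none past the fold (background 1.74%) and a median of 0.01.

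**Figure D2:**
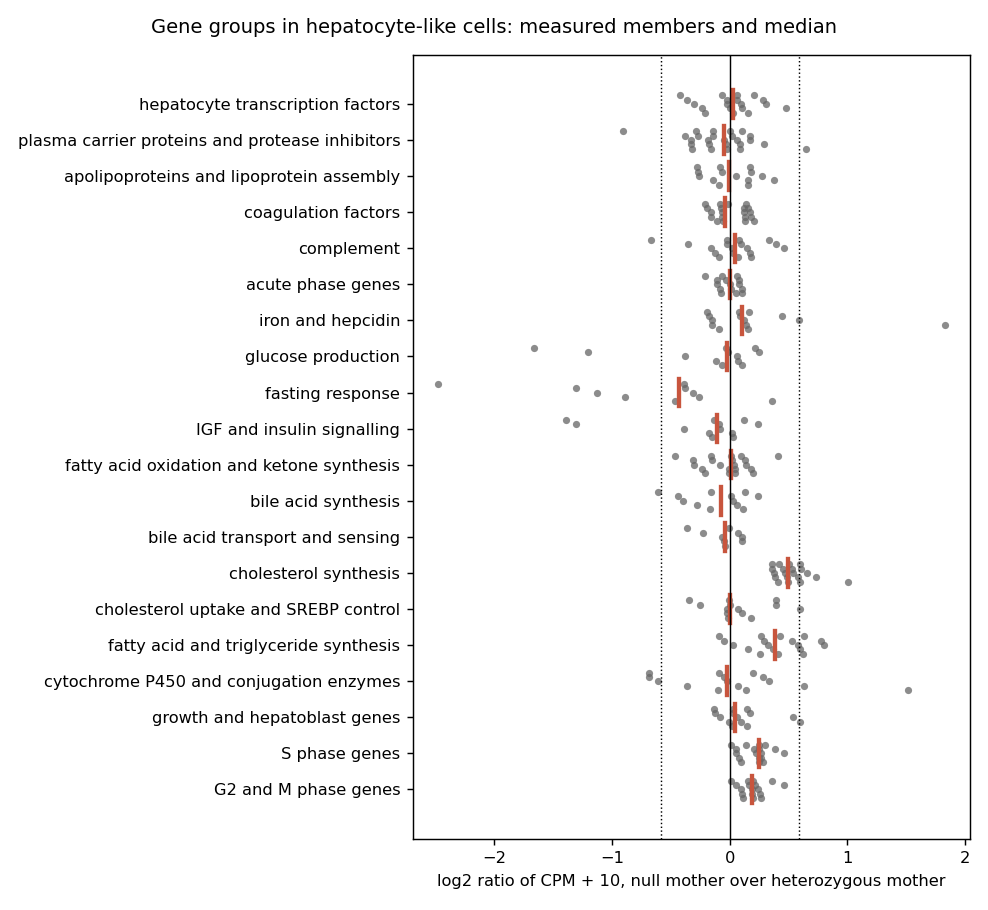
Each grey point is a measured gene of a group, placed by its log2 ratio as defined in the text; red bars are group medians and dotted lines mark 1.5-fold. All points of cholesterol synthesis lie to the right of 0 (0.36 to 1.00), 4 fasting genes lie left of the lower dotted line, and the coagulation and acute phase groups lie between the dotted lines.

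Bile acid synthesis, the pathway of the deleted enzyme, had 12 of 14 genes measured, a median of -0.07 and 1 gene past the fold. That gene was Cyp7a1, the rate-limiting enzyme of the classical pathway, at 45.6 and 26.3 CPM, 1.73-fold lower (1.45 to 2.06). In male cells it was at 49.0 and 25.7 CPM and in female cells of the null mother library at 31.0 CPM. Thinned, 10.5% (7.68 to 13.8) and 5.42% (4.32 to 6.70) of members had a Cyp7a1 UMI. Cyp8b1, which sets the share of cholic acid, was at 46.0 and 32.5 CPM, within the fold. Cyp7b1, the oxysterol hydroxylase of the alternative pathway, had 0 UMIs in both libraries. None of the 9 measured genes of bile acid transport and sensing was past the fold (background 1.74%). The export pump Abcb11 was at 54.5 and 57.8 CPM and the receptor Nr1h4 at 27.9 and 26.2 CPM.

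The farthest gene upward was Hamp, which encodes hepcidin, the hormone that lowers iron export. It was at 21.8 and 103 CPM, 4.72-fold higher (3.82 to 5.91), and at 27.7 and 105 CPM in male cells and 105 CPM in the female ones. With the heterozygous mother its 90 UMIs lay in 25 of 411 cells and 10 cells held 83.3% of them, while with the null mother 332 of 1476 cells had a UMI. Thinned, the shares were 1.70% (0.687 to 3.48) and 11.04% (9.49 to 12.8), against 0.0436% and 0.489% of S100a8-rich cells. Of the 14 measured iron genes, the other one past the fold was the ferritin light chain Ftl1, at 3091 and 4647 CPM. Its partner Fth1 was at 3018 and 2635 CPM, and the transferrin gene Trf at 20313 and 21567 CPM.

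Among cytochromes P450 and conjugation enzymes, 15 of 28 were measured, 2 higher and 3 lower past the fold (background 1.08% and 0.658%). Cyp3a11, a steroid and bile acid hydroxylase, was at 33.2 and 113 CPM, 3.41-fold higher (2.86 to 4.08), and female cells of the null mother library had 109 CPM. Gstm1, a glutathione transferase, was at 392 and 613 CPM. The lower ones were Cyp2a5 (20.4 and 8.85 CPM), Cyp2e1 (19.9 and 8.55 CPM) and Cyp2d9 (30.8 and 16.7 CPM). The 3 genes stood at low levels, from 82 to 127 UMIs with the heterozygous mother.

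**Figure D3:**
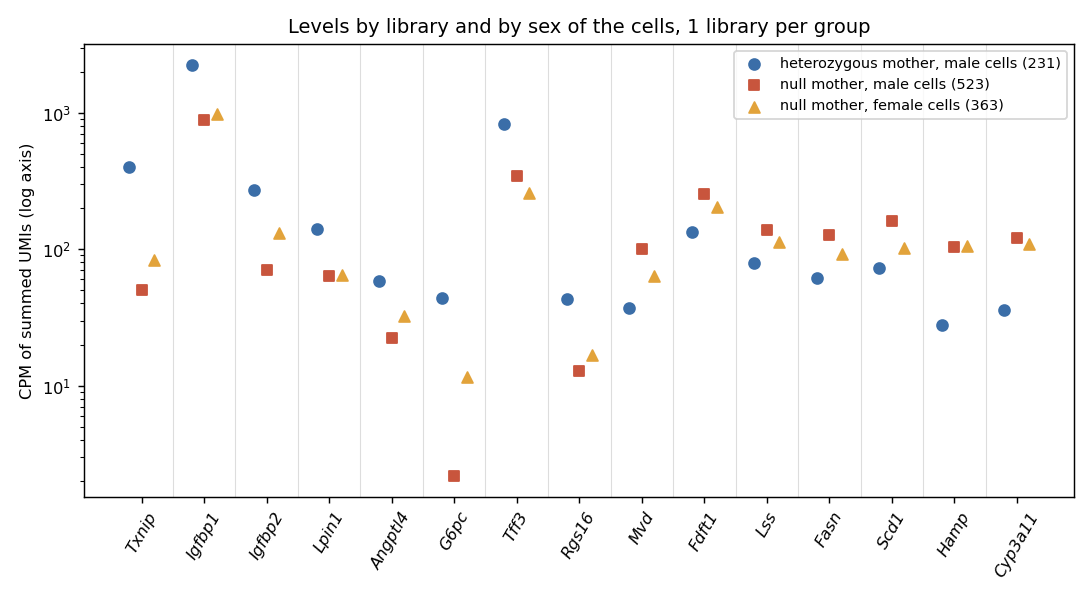
Points give the CPM of summed UMIs on a log axis for male cells of each library and female cells of the null mother library, 1 library per group. For Txnip (399, 50.0 and 83.7 CPM) to Rgs16 both points of the null mother library lie below that of the heterozygous mother, and for Mvd to Cyp3a11 both lie above it.

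Some of the genes farthest upward belong to blood cells. Elane (38.04 and 110 CPM), Mpo (21.8 and 61.0 CPM) and Prtn3 (62.5 and 142 CPM) are granule genes of neutrophil precursors, and 85.4% and 91.3% of the Elane UMIs lay in the 5 sub-clusters led by genes of other cells. Without members above the 95th percentile of UMIs, their log2 ratios turned to -0.19, -0.09 and -0.11. Pf4, a platelet gene at 13.3 and 50.4 CPM, had 739 of its 843 UMIs with the null mother in a single cell. All 8 neutrophil markers were measured in the members, with summed levels of 2218 and 2496 CPM, and 2 were higher past the fold (background 1.08%). The summed level of the 8 erythroid markers was 2370 and 1204 CPM, and 4 were lower past the fold (background 0.658%). Haemoglobin was 0.233% and 0.117% of member UMIs. Erythroid markers in the other cells were at 43750 and 29929 CPM. Of 8 macrophage markers 5 were measured, and the summed levels of the 8 were 15.5 and 51.4 CPM. The 3 higher past the fold (background 1.08%) were Cd5l, Marco and C1qb, with 3, 9 and 19 UMIs with the heterozygous mother. They reached the minimum only through the null mother library, where they were higher, so their count is no result about macrophages. Summed B lineage markers were at 61.3 and 105 CPM, and the bile duct markers, Spp1 among them, at 219 and 43.2 CPM. The part of these cells in the levels of the members was not tested beyond the values without their sub-clusters.

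Hepatocyte RNA in the other cells also differed between the libraries. Alb was at 382 and 1332 CPM in the other cells with at least 1000 genes. The part of free RNA in the levels of the members was not tested.

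The secreted products that define a hepatocyte were mostly within the fold. Alb was at 54970 and 49108 CPM, Afp at 27726 and 28083 CPM, Apoa1 at 18667 and 17514 CPM, Apoa2 at 16203 and 19589 CPM and Ttr at 23862 and 29140 CPM; these 5 chose the cells and are given as a description. None of 20 measured coagulation factors, 14 apolipoprotein genes or 15 acute phase genes was past the fold. The background is 1.74%, at which lists of this size can easily hold none. Of 25 measured carrier proteins and protease inhibitors, Serpina6, which carries corticosteroids, was higher at 303 and 480 CPM and Serpina1e lower. Of 18 measured complement genes, Mbl2, the mannose-binding lectin, was lower at 130 and 78.5 CPM.

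Of 24 transcription factors of the hepatocyte 19 were measured, all within the fold (background past it 1.74%) and with a median of 0.03. Of the measured ones, those farthest from 0 were Cebpb, an inducer of metabolic genes (48.5 and 71.4 CPM), and Hhex, a factor of early liver growth (61.5 and 43.3 CPM). Nr1i3 fell just short of the minimum with 48 and 77 UMIs, and lay farther from 0, at 11.6 and 4.61 CPM (log2 -0.57). Foxa3 was at 67.4 and 79.1 CPM and Cebpa at 110 and 119 CPM. The receptor Ppara, which drives fatty acid oxidation, was at 85.3 and 67.2 CPM.

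Of 18 growth and hepatoblast genes 14 were measured, and 1 was past the fold, Dlk1, a membrane protein of hepatoblasts from an imprinted locus, at 368 and 561 CPM or 1.53-fold higher (1.45 to 1.61). Next was Cdkn1c, an imprinted inhibitor of the cell cycle, within the fold at 820 and 1194 CPM (log2 0.54). H19, another imprinted RNA, was at 4203 and 4279 CPM. All 18 S phase genes had log2 ratios above 0, with a median of 0.25. The 17 measured G2 and M phase genes were also above 0, with a median of 0.19. Their shared sign was partly fixed by the minimum, which low genes passed more easily when higher with the null mother. The G2 and M phase genes that it left out, Aurkb, Kif11 and Kif20a, lay just below 0 (-0.032, -0.026 and -0.029). No measured gene of the 2 lists was past the fold. Over all measured genes the median was 0.11 and 78.5% were above 0. In thinned cells, 13.1% (10.0 to 16.8) and 14.2% (12.5 to 16.1) of members had 2 or more UMIs of G2 and M phase genes, intervals that overlap. The S100a8-rich cells had 67.7% and 73.6%.

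**Figure D4:**
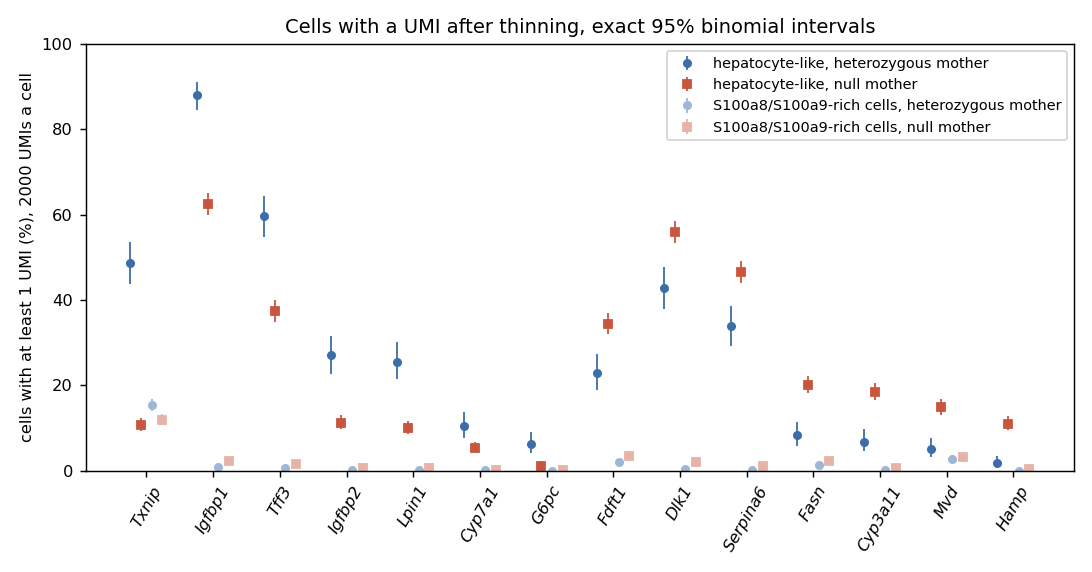
Points are the percentage of cells with at least 1 UMI of a gene when every cell is thinned to 2000 UMIs, with exact 95% binomial intervals, in hepatocyte-like cells and in cells rich in S100a8 and S100a9. In hepatocyte-like cells the shares were 48.7% and 10.8% for Txnip, 88.1% and 62.5% for Igfbp1, and 1.70% and 11.04% for Hamp. These 3 genes were picked from the largest and smallest log2 ratios of the same members. The intervals cover counting error only, with 1 library per group.

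The differences were looked for on either side of the 2% limit, a comparison added after the data had been seen. The kinds at 2 to 15% and at 15% or more were pooled in it and not compared apart. In members with 2% or more mitochondrial UMIs (303 and 1188 cells), the median of the fasting response was -0.51 and that of cholesterol synthesis 0.50. In members under 2% (108 and 288 cells) they were -0.78 and 0.54, the first over 6 measured genes only. Txnip was at 366 and 62.3 CPM in the first and at 406 and 33.2 CPM in the second. Without the 5 sub-clusters led by genes of other cells, the medians were -0.45 and 0.47.

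The members also varied along the ratio of Afp to Alb. Each library was cut into 4 equal bins by Afp / (Afp + Alb), whose median ran from 21.3% to 43.4% with the heterozygous mother and from 26.3% to 44.7% with the null mother. Both genes chose the cells and the order, so only other genes are described, by the log2 ratio of the highest over the lowest bin. Of 2102 genes measured in both, 315 (15%) were higher and 83 (3.95%) lower past the fold with the heterozygous mother, and 80 (3.81%) higher and 56 (2.66%) lower with the null mother. In both libraries, 63 (3%) were higher and 41 (1.95%) lower, and none went opposite ways. Median UMIs went along, from 5978 to 11428 and from 6672 to 12917, and members with 15% or more mitochondrial UMIs went from 41.7% to 10.8% and from 33.1% to 10.0%. Their part in this order was not tested; with each member thinned to 2000 UMIs, 504 genes were measured, 10 were higher and 15 lower in both.

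Lect2, a secreted chemotactic protein, was farthest upward of all, at 10.5, 24.04, 50.4 and 148 CPM from the lowest to the highest bin with the heterozygous mother, and at 9.63, 24.1, 53.1 and 157 CPM with the null mother. Akr1c6, a steroid dehydrogenase, went from 21.1 to 65.0 CPM and from 9.31 to 53.3 CPM. Gulo, which makes vitamin C, went from 13.2 to 56.4 CPM and from 8.34 to 36.7 CPM. Serpina6 went from 141 to 519 CPM and from 328 to 691 CPM, and Dlk1 from 203 to 563 CPM and from 362 to 738 CPM. The neutrophil gene Retnlg was also among the 5 farthest upward, but was highest in bin 2 with the heterozygous mother, at 125 CPM.

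Among the genes lower at the Afp-rich end were several of plasma proteins and liver enzymes. Hrg, histidine-rich glycoprotein, went from 142 to 16.5 CPM and from 94.0 to 18.2 CPM. Serpina1e went from 15517 to 4651 CPM and from 6691 to 3075 CPM. It was lower with the null mother in each bin, though bins cut within each library do not match in Afp share. Defb1, a defensin, went from 97.5 to 21.9 CPM and from 44.6 to 9.62 CPM, and Cyp2a12, a cytochrome P450, from 81.7 to 24.3 CPM and from 76.7 to 18.8 CPM. Spp1 and Sparc, both leading genes of sub-cluster 9, were the others farthest down.

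**Figure D5:**
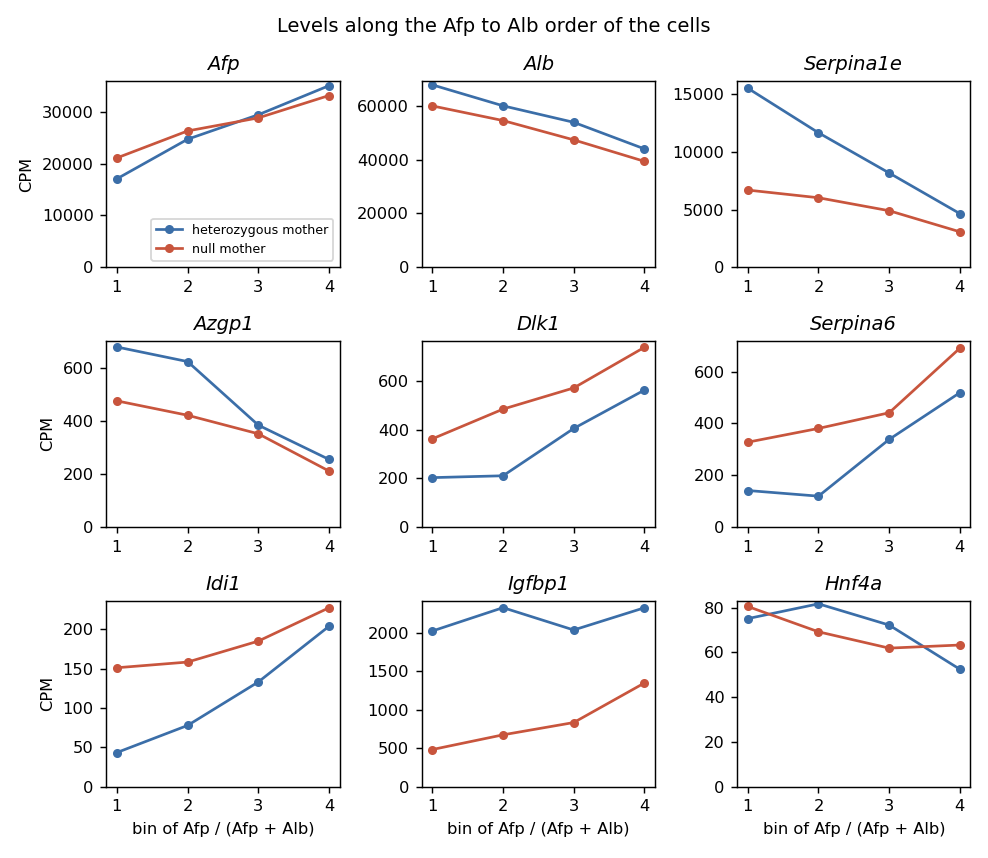
Lines give the CPM of 9 genes in the 4 bins of cells ordered by Afp / (Afp + Alb), 1 line per library. Serpina1e and Azgp1 are lower, and Dlk1, Serpina6 and Idi1 higher, in bin 4 than in bin 1 of both libraries, while Igfbp1 goes from 484 to 1347 CPM with the null mother and stays between 2022 and 2325 CPM with the heterozygous mother.

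Igfbp1 followed the order in 1 library and not in the other. With the null mother it was at 484, 674, 834 and 1347 CPM, and with the heterozygous mother at 2022, 2325, 2035 and 2323 CPM. Cholesterol synthesis was higher at the Afp-rich end, with a median over its 20 genes of 1.03 in the library of the heterozygous mother against 0.51 in the other, and 6 past the fold in both. In the bins of the heterozygous mother Idi1, an isomerase of the pathway, was at 43.5, 77.9, 133 and 204 CPM, and in those of the null mother at 151, 158, 185 and 227 CPM. It was thus higher with the null mother in each bin, with the wider gap in the lowest one. Bins were cut within each library and do not match in Afp share, whose medians in the lowest bin were 21.3% and 26.3%. The part of this in the gap was not tested. Hnf4a stayed within the fold, at 75.1 and 52.5 CPM and at 80.5 and 63.3 CPM in the outer bins.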

How the data were processed

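The authors deposited UMI counts per gene and cell as 1 matrix of 31053 genes, whole numbers whose cell sums equal the deposited totals. Cell Ranger 3.0.0, Seurat 4.3.0 and mm10 were used, per the submitters' processing notes; their settings were not given in the sources used here. The lowest cell had 500 UMIs. Genes and barcodes were told apart by content, since their deposited files have swapped names. The members and gene lists were chosen with earlier results of these data known.

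Counts were summed over members per library and divided by the total. The step was tested on simulated data. Thinning drew 2000 UMIs a cell (seed 1). Members were clustered with scanpy 1.11.5 (2000 variable genes, 30 components, 20 neighbours, leidenalg 0.10.2, resolution 0.5) under Python 3.11.15, numpy 2.4.6 and scipy 1.17.1. S100a8-rich cells had at least 5% of UMIs in S100a8 and S100a9. Doublets that Scrublet called stayed in, except in 1 alternative. A Y-linked UMI without Xist made a cell male, the reverse female. Named genes were the 5 of the rule, the 20 highest, the 10 largest and 10 smallest log2 ratios, up to 4 farthest members of a list, 5 each way along the Afp bins, and Cyp27a1, Cyp7a1, Hnf4a, Hamp, Igf2, H19, Dlk1 and Mki67. Haemoglobin, Xist, Y-linked, mitochondrial, immunoglobulin, predicted and Rik genes stayed out of the ranking. Some genes of the lists are counted but not reported here by name. Other genes were named from the lists after their values were seen. Alternatives included other scalings, minimums, pseudocounts and subsets of cells, and the splits by 2% mitochondrial UMIs, the removal of sub-clusters and of shared barcodes, and the filter on mean CPM were added after seeing the data.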

Additional observations from a re-analysis of the deposited data

How the results depend on the processing

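No paired analysis was possible because each group had 1 library. Of 1166 values of 53 named genes past the fold under the alternatives, 1155 kept their sign. The exceptions were Elane (-0.19), Mpo (-0.087) and Prtn3 (-0.11) without members above the 95th percentile of UMIs; Pf4 without called doublets (-0.49), in male members (-0.97), in male members with 2% or more mitochondrial UMIs (-1.16), under 2% (-0.080) and without the 5 sub-clusters led by genes of other cells (-0.12), which also turned Hmox1 (-0.014) and C1qb (-0.14); and Ccl5 under 2% mitochondrial UMIs (0.048). No list median of 0.2 or more in size changed sign. The 53 genes were picked from the same members, and most alternatives reuse their cells and counts. A kept sign was thus largely fixed beforehand.

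Of the counts, scaling by the median of ratios gave 30 higher and 81 lower, a pseudocount of 1 CPM 728 and 110, thinning 220 and 26, a minimum of 200 UMIs 26 lower, and members under 2% mitochondrial UMIs 286 higher. A mean CPM of 20 or more in both libraries together, a filter that treats them alike, left 63 higher and 43 lower. The median of cholesterol synthesis was 0.33 with median-of-ratios scaling, 0.34 for female members of the null mother library and 0.28 for those with 2% or more mitochondrial UMIs. The share of members was 2.86 times as high among cells with at least 1000 genes and 2.98 times among cells with under 5% haemoglobin UMIs. The difference in the share of members with a Txnip UMI, null minus heterozygous mother, was -24.8 percentage points in cells thinned to 1000 UMIs, and 10 genes were higher and 15 lower in both libraries along the Afp bins after thinning to 2000. A resolution of 1 gave 14 sub-clusters. Low genes limit the comparison: 50 UMIs are 12.1 and 2.99 CPM, and a ratio from such counts covers counting error only. With 1 library per group there is no spread between replicates.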
